A study of Homo sapiens with 30 samples.

Results

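SLC7A5, its annotated pseudogenes SLC7A5P1 and SLC7A5P2, and SLC3A2 were followed in 30 RNA-Seq libraries of Omomyc-treated human cells. These 4 rows, of 57992 genes in the deposited table, were chosen by name, together with their earlier seen values in all 10 groups, to ask whether reads may be shared between SLC7A5 and its copies. The RPKM values of the 4 rows are therefore described without a test, and no support is drawn from them. Genes outside the 4 rows were tested, as stated beside each.

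SLC7A5 encodes LAT1, the light chain of a transporter that takes up leucine and other large neutral amino acids in exchange for intracellular amino acids. SLC3A2 encodes 4F2hc (CD98), the heavy chain that is joined to LAT1 by a disulfide bond and brings it to the plasma membrane. Proliferating cells carry much of both proteins, SLC7A5 is a known target of MYC and of ATF4, and the leucine that LAT1 imports feeds signaling to mTORC1. A pseudogene is a gene copy that has lost its coding function, and RNA made from it can look like RNA of its parent.

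Both cell lines are established ones, with 15 libraries each and 3 replicates in each of 10 groups. HCT116 is a colon carcinoma line labelled as having stabilized MYC. Ramos is a Burkitt's lymphoma B cell line labelled as carrying a MYC translocation. Omomyc is a recombinant mutant of the MYC dimerization domain that binds MYC, MAX and E boxes in DNA. HCT116 cells were untreated or received 2 or 10 μM Omomyc for 6 or 24 h, and Ramos cells were untreated or received 0.5 or 2.5 μM for 6 or 24 h. The lower HCT116 dose is 2 μM in the library titles and 2.5 μM in the study's methods, and a label gives 4 h where the titles give 24 h. The titles were followed. By the methods, HCT116 cells were treated together with ProteoJuice, a protein transfection reagent. Whether untreated HCT116 cells received it, and whether Ramos cells did, is not given in the sources used here. Nothing in the labels says that replicates came from separate cultures, so the spread between them may be technical.

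Markers of the lines were as labelled, with some gaps. In HCT116 cells 4 of 6 epithelial markers had a median RPKM of at least 1, KRT20 had a median of 0.467 and CDX1 was listed at 0. In Ramos cells 6 of 6 B cell markers did so and 0 of 6 epithelial markers did. CD22, a B cell marker, had a median of 1.03 RPKM in HCT116 cells against 313 in Ramos cells. The number of reads per library is unknown, since the table holds RPKM. Between 14340 and 15340 genes reached 0.5 RPKM in HCT116 libraries and between 13483 and 13785 in Ramos libraries. The third replicate of HCT116 at 10 μM for 6 h stood apart. Its RPKM summed to 1051041, where the other 14 HCT116 libraries ranged from 593633 to 836899, and RN7SL1, the signal recognition particle RNA, made up 19.7% of it.

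The copies match one part of SLC7A5. SLC7A5 (ENSG00000103257) lies at chr16:87830023-87869488 on the minus strand of GRCh38 and its main transcript has 10 exons. SLC7A5P1 (ENSG00000260727, an unprocessed pseudogene in GENCODE 29) lies at chr16:29613104-29613640, and SLC7A5P2 (ENSG00000258186, a transcribed processed pseudogene) at chr16:21519830-21520365, both also on the minus strand. SLC3A2 (ENSG00000168003) lies at chr11:62856102-62888875 on the plus strand. Both pseudogenes aligned without a gap to the 538 coding bases in exon 1 of SLC7A5, from the start codon on, and to no later exon. SLC7A5P1 differed from SLC7A5 at 18 of 537 bases, an identity of 96.6%. SLC7A5P2 differed at 20 of 536 bases, an identity of 96.3%. At 11 positions both copies differed from SLC7A5, and at all 11 they carried the same base as each other. The copies differed from each other at 16 of 536 bases and shared a run of 152 identical bases.

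The first 120 coding bases are shown because both copies carry several differences there. Capitals mark a base that differs from SLC7A5. The SLC7A5 stretch is chr16:87869303-87869422, that of SLC7A5P1 is chr16:29613521-29613640 and that of SLC7A5P2 is chr16:21520246-21520365.
SLC7A5: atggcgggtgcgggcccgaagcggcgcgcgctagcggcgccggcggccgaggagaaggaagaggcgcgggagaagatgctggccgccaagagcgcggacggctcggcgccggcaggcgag
SLC7A5P1: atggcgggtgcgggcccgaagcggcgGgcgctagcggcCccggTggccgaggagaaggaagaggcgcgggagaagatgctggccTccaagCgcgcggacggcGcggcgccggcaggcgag
SLC7A5P2: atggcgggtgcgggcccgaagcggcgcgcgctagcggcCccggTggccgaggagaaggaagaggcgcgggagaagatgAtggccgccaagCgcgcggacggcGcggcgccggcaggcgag
In these 120 bases SLC7A5P1 had 6 differences and SLC7A5P2 had 5.

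The longest run without a difference between SLC7A5P2 and SLC7A5 is shown because a read that falls inside it cannot be assigned by sequence. It spans 155 bases, from coding base 367 to 521. The stretches are chr16:87868902-87869056 in SLC7A5, chr16:29613120-29613274 in SLC7A5P1 and chr16:21519845-21519999 in SLC7A5P2.
SLC7A5: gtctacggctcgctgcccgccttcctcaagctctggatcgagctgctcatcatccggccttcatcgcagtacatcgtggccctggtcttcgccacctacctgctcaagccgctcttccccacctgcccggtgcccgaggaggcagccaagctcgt
SLC7A5P1: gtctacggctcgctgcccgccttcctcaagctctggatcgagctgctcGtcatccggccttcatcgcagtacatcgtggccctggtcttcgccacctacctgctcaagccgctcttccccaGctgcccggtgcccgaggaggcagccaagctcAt
SLC7A5P2: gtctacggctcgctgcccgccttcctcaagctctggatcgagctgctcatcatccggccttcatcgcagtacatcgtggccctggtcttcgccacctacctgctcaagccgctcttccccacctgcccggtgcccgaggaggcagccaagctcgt
SLC7A5P1 had 3 differences in this stretch, and its own longest identical run with SLC7A5 was 72 bases. The map of differences along exon 1 shows that 12 of 18 in SLC7A5P1 and 15 of 20 in SLC7A5P2 lie nearer to the start codon than to the end of the copy.

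**Figure D1:**
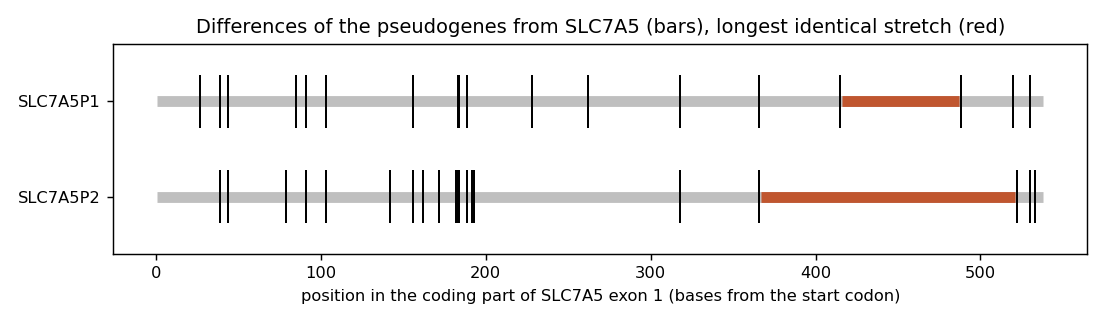
Positions at which SLC7A5P1 and SLC7A5P2 differ from SLC7A5 (black bars) along the coding part of exon 1, in bases from the start codon on the x axis, with the longest identical stretch in red. The red stretch is 72 bases in SLC7A5P1 and 155 bases in SLC7A5P2.

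Words of 50, 75 and 100 bases were compared across all annotated transcripts, to show how much of each row could be read without ambiguity. The read length is not given in the sources used here. Of the 4695 different 50-base words of SLC7A5, 184 also occurred in another gene on the same strand, so that 96.1% were its own. Of 488 such words of SLC7A5P1, 350 were its own (71.7%), and with 100-base words this share was 87.9%. Of 487 words of SLC7A5P2, 0 were its own at 50, 75 or 100 bases. SLC3A2 shared no word with any other gene at these lengths. SLC7A5P2 lies within SMG1P3, a pseudogene of the SMG1 kinase gene at chr16:21446683-21520444 on the same strand, and all 487 of its 50-base words also occurred in SMG1P3 transcripts. SMG1P3 shared 181 words with SLC7A5 and 135 with SLC7A5P1 for the same reason. SLC7A5 shared 181 words with SLC7A5P2 and 32 with SLC7A5P1. The remaining gene with shared words was AC126696.2, an antisense gene within the SLC7A5 locus, which had 222 words on the other strand and was listed at 0 in all 30 libraries. The library kit was stranded, but whether counting used the strand is not given in the sources used here.

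SLC7A5 lay between 99.5 and 225 RPKM in all 30 libraries. In untreated HCT116 cells it was at 138, 137 and 142 RPKM. The cells given 2 μM for 6 h had 163, 127 and 167 RPKM, and at 24 h they had 129, 122.7 and 150 RPKM. The values of both groups lay on either side of the untreated libraries. At 10 μM for 6 h SLC7A5 was at 185, 225 and 99.5 RPKM, the highest and the lowest value of the line in one group. At 10 μM for 24 h it was at 150, 144 and 157 RPKM, all above untreated. In Ramos cells the untreated libraries had 113, 110 and 118 RPKM. At 0.5 μM they had 133, 136 and 141 RPKM at 6 h and 112, 120 and 125 RPKM at 24 h. At 2.5 μM they had 132, 134 and 129 RPKM at 6 h and 121, 129 and 122.9 RPKM at 24 h. Of 12 treated Ramos libraries 11 lay above the highest untreated one, against 8 of 12 in HCT116 cells, where the other 4 lay below the lowest. As in every bulk result, a change in the share of expressing cells and a change in RNA per cell cannot be told apart.

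On the log2(RPKM + 0.5) scale, the SLC7A5 difference from untreated was 0.12 ± 0.10 (SE) at 2 μM for 6 h, -0.06 ± 0.07 at 2 μM for 24 h, 0.21 ± 0.27 at 10 μM for 6 h and 0.11 ± 0.05 at 10 μM for 24 h in HCT116 cells. Without the library that stood apart, the value at 10 μM for 6 h was 0.55, and without the second library of that group it was -0.033. At 2 μM single libraries moved it from 0.049 to 0.25 at 6 h, without the third and the second treated library, and from -0.14 to 0.0022 at 24 h, again without the third and the second. In Ramos cells it was 0.27 ± 0.05 at 0.5 μM for 6 h, 0.06 ± 0.05 at 0.5 μM for 24 h, 0.22 ± 0.04 at 2.5 μM for 6 h and 0.13 ± 0.04 at 2.5 μM for 24 h. The Ramos differences at 6 h were the larger of the 2 times at both doses. The median difference over all genes tested was -0.12 at 2 μM and -0.11 at 10 μM for 6 h in HCT116 cells and within 0.05 of 0 in the other comparisons with untreated cells. With libraries scaled by median ratios, the SLC7A5 difference at 6 h was 0.25 at 2 μM and 0.36 at 10 μM in HCT116 cells. With each library scaled to an equal sum of RPKM, the SLC7A5 difference in HCT116 cells was below 0 at both doses and both times.

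SLC3A2, the heavy chain, was at a similar level. In untreated HCT116 cells it was at 157, 164 and 152 RPKM. At 2 μM it was at 185, 124 and 168 RPKM at 6 h and at 152, 141 and 175 RPKM at 24 h. At 10 μM it was at 205, 290 and 119 RPKM at 6 h and at 184, 181 and 189 RPKM at 24 h. As for SLC7A5, the third library at 10 μM and 6 h was the lowest of the line, the second was the highest, and the 24 h libraries lay above untreated. In Ramos cells it was at 124, 127 and 135 RPKM untreated. At 0.5 μM it was at 137, 137 and 141 RPKM at 6 h and between 129 and 130 RPKM in the 3 libraries at 24 h. At 2.5 μM it was at 132, 130 and 128 RPKM at 6 h and at 125, 131 and 127 RPKM at 24 h. Of 12 treated Ramos libraries 3 lay above the highest untreated one, and all 3 were from 0.5 μM at 6 h.

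The SLC3A2 difference on the log2 scale was -0.01 ± 0.13 (SE) at 2 μM for 6 h, -0.02 ± 0.07 at 2 μM for 24 h, 0.29 ± 0.28 at 10 μM for 6 h and 0.23 ± 0.05 at 10 μM for 24 h in HCT116 cells. With median-ratio scaling the value at 2 μM for 6 h was 0.12, of the other sign, and without the library that stood apart the value at 10 μM for 6 h was 0.63. Without the second library of that group it was -0.0098. At 2 μM it lay between -0.13 without the first treated library and 0.16 without the second at 6 h, and between -0.10 without the third and 0.050 without the second at 24 h. In Ramos cells it was 0.11 ± 0.05 at 0.5 μM for 6 h, and it lay between -0.01 and 0.01 in the other 3 groups, where its sign changed with the scaling. The plot of both genes by library shows the narrow Ramos groups beside the wide HCT116 groups at 6 h.

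**Figure D2:**
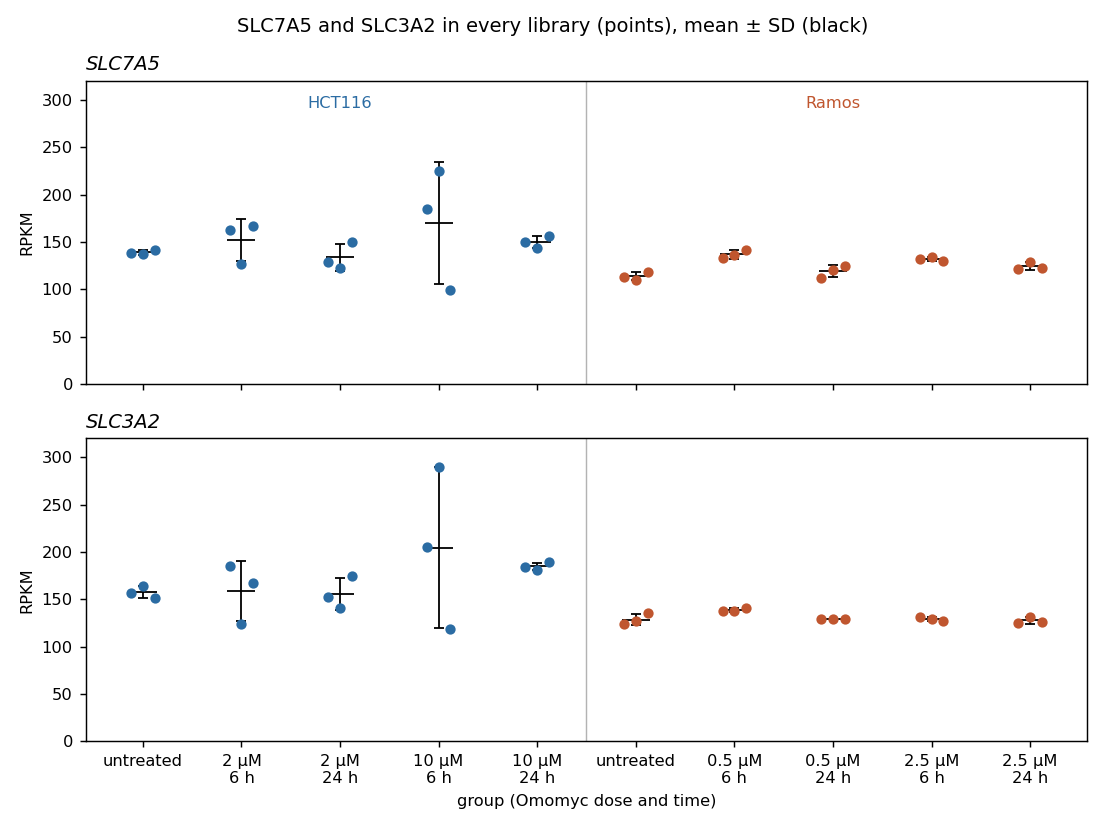
RPKM of SLC7A5 and SLC3A2 (y axes) in each of the 30 libraries (points, HCT116 blue, Ramos red) by group on the x axis, with the mean and SD of 3 libraries in black. In HCT116 cells at 10 μM for 6 h the points spread from 99.5 to 225 RPKM for SLC7A5 and from 119 to 290 RPKM for SLC3A2.

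The order of the group means was not the same for the 2 genes. In HCT116 cells SLC7A5 ran from 170 ± 64.3 RPKM (SD, n = 3) at 10 μM for 6 h over 152 ± 22.2 at 2 μM for 6 h, 150 ± 6.42 at 10 μM for 24 h and 139 ± 2.60 untreated to 134 ± 14.2 at 2 μM for 24 h. Of these neighbours, the ranges of libraries were apart only between 10 μM for 24 h and untreated. In Ramos cells SLC7A5 ran from 137 ± 4.38 at 0.5 μM for 6 h over 132 ± 2.45 at 2.5 μM for 6 h, 125 ± 4.17 at 2.5 μM for 24 h and 119 ± 6.28 at 0.5 μM for 24 h to 114 ± 4.14 untreated. There the ranges of neighbours were apart only between 2.5 μM for 6 h and 2.5 μM for 24 h. SLC3A2 in HCT116 cells ran from 205 ± 85.4 at 10 μM for 6 h over 185 ± 4.10 at 10 μM for 24 h to 159 ± 31.6, 157 ± 6.28 and 156 ± 17.1 at 2 μM for 6 h, untreated and 2 μM for 24 h, with overlap between all neighbours. In Ramos cells SLC3A2 was highest at 0.5 μM for 6 h, 138 ± 2.06, apart from the next group, and the other 4 groups had means between 128 and 130 RPKM with overlap between neighbours.

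The ratio of light chain to heavy chain RNA was close to 1 in both lines. SLC7A5 over SLC3A2, both in RPKM, was 0.884 ± 0.0506 (SD, n = 3) in untreated HCT116 cells and 0.885 ± 0.0272 in untreated Ramos cells. Over the 15 libraries it ranged from 0.777 to 1.03 in HCT116 cells and from 0.865 to 1.04 in Ramos cells. In Ramos cells at 6 h the ratio was 0.988 ± 0.0189 at 0.5 μM and 1.02 ± 0.0155 at 2.5 μM. These 6 libraries lay above the 3 untreated ones. In HCT116 cells the ratio was lowest at 10 μM for 24 h, 0.812 ± 0.0168, and the 3 libraries there lay below the untreated ones. The third library at 10 μM for 6 h, low in both genes, had a ratio of 0.835, between those of its group, which were 0.904 and 0.777.

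Across the libraries of a line the genes varied together to different degrees. Pearson's r between SLC7A5 and SLC3A2 was 0.933 and Spearman's rho 0.904 over 15 HCT116 libraries, and r was 0.923 without the library that stood apart. In Ramos cells r was 0.657 and rho 0.693 over 15 libraries. These are descriptions, since the libraries of a line share groups and scaling. By r with SLC7A5, SLC3A2 came at rank 4 of 11677 genes in HCT116 cells and at rank 2302 of 10696 in Ramos cells, among genes with a mean of at least 2 RPKM. The 5 genes with the highest r with SLC7A5, the 4 rows left out, were PDCD11 (0.954), NTSR1 (0.936), ELFN2 (0.934), SLC6A17 (0.932) and URB1 (0.920) in HCT116 cells. In Ramos cells they were UQCRC1 (0.972), RIOX1 (0.971), NCF4 (0.969), FAM98C (0.967) and FBXW5 (0.961). With SLC3A2 the highest r was found for DDR1 (0.960), ATP2B1 (0.956) and CKAP4 (0.956) in HCT116 cells and for CDK10 (0.856), DBNL (0.8498) and C17orf53 (0.8498) in Ramos cells. With Spearman's rho, of these genes RIOX1 and DBNL stayed among the named ones.

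SLC7A5P1 differed more between the untreated lines than SLC7A5 and SLC3A2 did. In untreated HCT116 cells it was at 4.74, 4.11 and 3.98 RPKM and in untreated Ramos cells at 38.5, 34.3 and 35.9 RPKM, so the mean was 8.47 times higher in Ramos cells. SLC7A5 and SLC3A2 were each 1.22 times higher in untreated HCT116 cells, the opposite direction. The lowest Ramos library of SLC7A5P1, at 34.3 RPKM, lay above the highest HCT116 library, at 11.99 RPKM. The log2 difference of untreated HCT116 from untreated Ramos was 0.29 ± 0.04 (SE) for SLC7A5, 0.29 ± 0.05 for SLC3A2 and -2.94 ± 0.08 for SLC7A5P1. SMG1P3, the pseudogene around SLC7A5P2, had 25.1 ± 3.54 RPKM (SD, n = 3) in untreated HCT116 cells and 230 ± 9.94 in untreated Ramos cells, 9.19 times higher in Ramos. For SMG1P3, which was not among the chosen rows, limma's test gave a log2 difference of -3.18 ± 0.10 (SE) with an adjusted p of 9.7e-08. SMG1P3 transcripts hold every 50-base word of SLC7A5P2, so reads may be shared between these rows. Words that SMG1P3 shares with genes other than the 4 rows were not searched.

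In HCT116 cells SLC7A5P1 was at a higher mean in each treated group than in untreated cells. At 2 μM it was at 3.87, 6.98 and 5.50 RPKM at 6 h and at 7.23, 5.71 and 8.31 RPKM at 24 h. At 10 μM it was at 11.99, 10.5 and 9.68 RPKM at 6 h and at 6.37, 7.04 and 6.58 RPKM at 24 h. Of 12 treated libraries 11 lay above the highest untreated one, and the exception was the first library at 2 μM and 6 h. The log2 difference was 0.29 ± 0.18 (SE) at 2 μM for 6 h, 0.66 ± 0.13 at 2 μM for 24 h, 1.23 ± 0.13 at 10 μM for 6 h and 0.59 ± 0.09 at 10 μM for 24 h. The third library at 10 μM and 6 h, lowest of the line for SLC7A5, was not so for SLC7A5P1, and without it the difference was 1.30. The difference at 2 μM for 6 h moved most with single libraries, to 0.49 without the first treated library and to 0.10 without the second.

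In Ramos cells SLC7A5P1 lay above untreated in all 12 treated libraries, whose 4 groups share the same 3 untreated ones. Of all genes tested, 41.4% and 11.5% had no overlap with untreated, in either direction, at 0.5 μM for 6 and 24 h. For 2.5 μM these shares were 44.7% and 27.4%. At 0.5 μM SLC7A5P1 was at 43.4, 47.5 and 48.1 RPKM at 6 h and at 46.2, 45.6 and 50.9 RPKM at 24 h. At 2.5 μM it was at 41.5, 40.0 and 43.8 RPKM at 6 h and at 45.4, 38.7 and 40.6 RPKM at 24 h. Of the 6 libraries at 2.5 μM, 4 lay below all 6 at 0.5 μM. The log2 difference was 0.35 ± 0.06 (SE) and 0.39 ± 0.06 at 0.5 μM for 6 and 24 h, and 0.20 ± 0.06 and 0.19 ± 0.07 at 2.5 μM. The plot of log2 differences shows that SLC7A5P1 exceeded its parent in 7 of 8 groups.

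**Figure D3:**
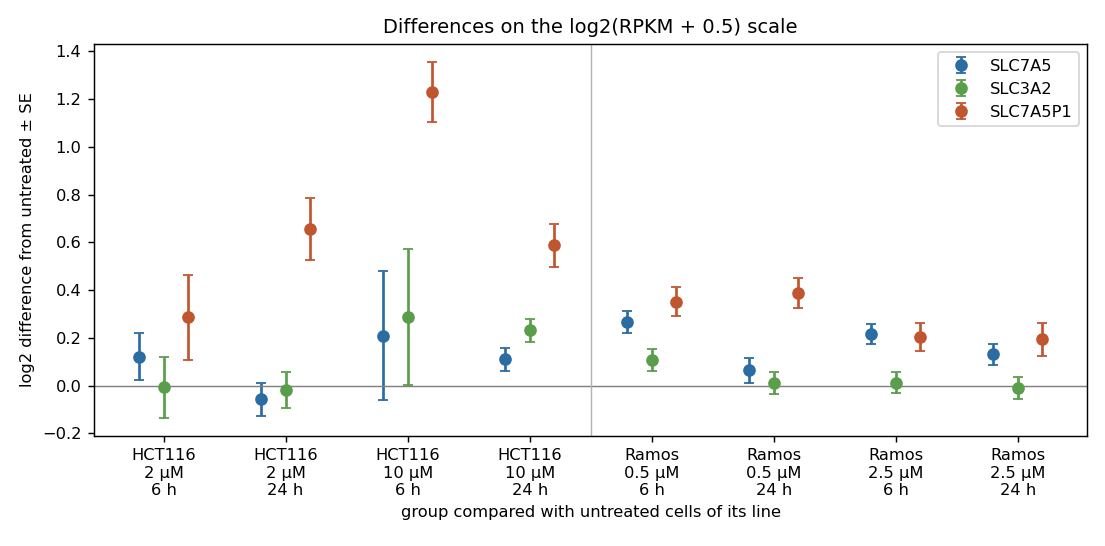
Log2 differences from untreated cells of the same line ± SE on the log2(RPKM + 0.5) scale (y axis) for SLC7A5, SLC3A2 and SLC7A5P1 in the 8 treated groups (x axis), 3 libraries per group. SLC7A5P1 had its largest difference, 1.23, in HCT116 cells at 10 μM for 6 h. The 4 groups of a line share their untreated libraries.

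SLC7A5P2, which had no word of its own, varied widely between replicates. In HCT116 cells it was at 0.924, 0.264 and under 0.0001 RPKM untreated. At 2 μM it was at 0.0078, 5.39 and 3.03 RPKM at 6 h and at 0.0911, 2.39 and 8.22 RPKM at 24 h. At 10 μM it was at 11.1, 4.78 and under 0.0001 RPKM at 6 h and at 3.09, 1.41 and 4.74 RPKM at 24 h. In 4 of 5 HCT116 groups the highest library was more than 5 times the lowest. In Ramos cells all 3 untreated libraries were under 0.0001 RPKM, of which 2 were listed at 0. At 0.5 μM they were at 10.1, 15.7 and 22.4 RPKM at 6 h and at 16.9, 8.003 and 10.5 RPKM at 24 h. At 2.5 μM they were at 5.28, 3.48 and 5.16 RPKM at 6 h and at 5.46, 2.11 and under 0.0001 RPKM at 24 h. Values under 0.0001 RPKM occurred in 2 HCT116 and 4 Ramos libraries, and no fold change or mean is given for this row. RSEM, the program in the submitters' notes, divides ambiguous reads between transcripts by an estimate, so its values need not stand for whole reads.

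SMG1P3, whose transcripts hold all of SLC7A5P2 and whose sharing with genes beyond the 4 rows was not searched, was examined in the same groups. Against untreated HCT116 cells at 25.1 ± 3.54 RPKM (SD, n = 3) it was at 29.6 ± 4.34 at 2 μM for 6 h, 41.8 ± 7.24 at 2 μM for 24 h, 50.9 ± 10.7 at 10 μM for 6 h and 45.9 ± 8.39 at 10 μM for 24 h. By limma with Benjamini-Hochberg adjustment over all genes tested, it rose at 2 μM for 24 h (adjusted p = 0.0047), at 10 μM for 6 h (adjusted p = 0.0059) and at 10 μM for 24 h (adjusted p = 0.0011). The value at 2 μM for 6 h did not pass (adjusted p = 0.15). In Ramos cells it rose at 0.5 μM for 6 h, by 0.23 ± 0.05 (SE) on the log2 scale (adjusted p = 0.0088), and the other 3 groups, with differences from 0.11 to 0.13, did not pass. In HCT116 cells both SMG1P3 and SLC7A5P1 had no overlap with untreated at 2 μM for 24 h and at 10 μM for 6 and 24 h. Of all genes tested, 44.9%, 50.2% and 49.3% had none in these groups. In Ramos cells neither gene overlapped with untreated at 6 h, and at 24 h SMG1P3 overlapped at both doses where SLC7A5P1 did not. Nothing is read from these matches. Over the libraries of a line Pearson's r between SLC7A5P1 and SMG1P3 was 0.749 in HCT116 cells and 0.554 in Ramos cells (n = 15 each). It was 0.437 and 0.715 between SLC7A5 and SMG1P3, 0.207 and 0.435 between SLC7A5P1 and SLC7A5, and 0.567 and 0.868 between SLC7A5P1 and SLC7A5P2. Without the HCT116 library that stood apart (n = 14), r in HCT116 cells was 0.762 between SLC7A5P1 and SMG1P3, 0.599 between SLC7A5 and SMG1P3, 0.498 between SLC7A5P1 and SLC7A5 and 0.775 between SLC7A5P1 and SLC7A5P2. The values are a description of libraries that share treatment groups, and the order of the pairs was not the same in the lines. The plot of the pseudogenes by library shows the split between the lines.

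**Figure D4:**
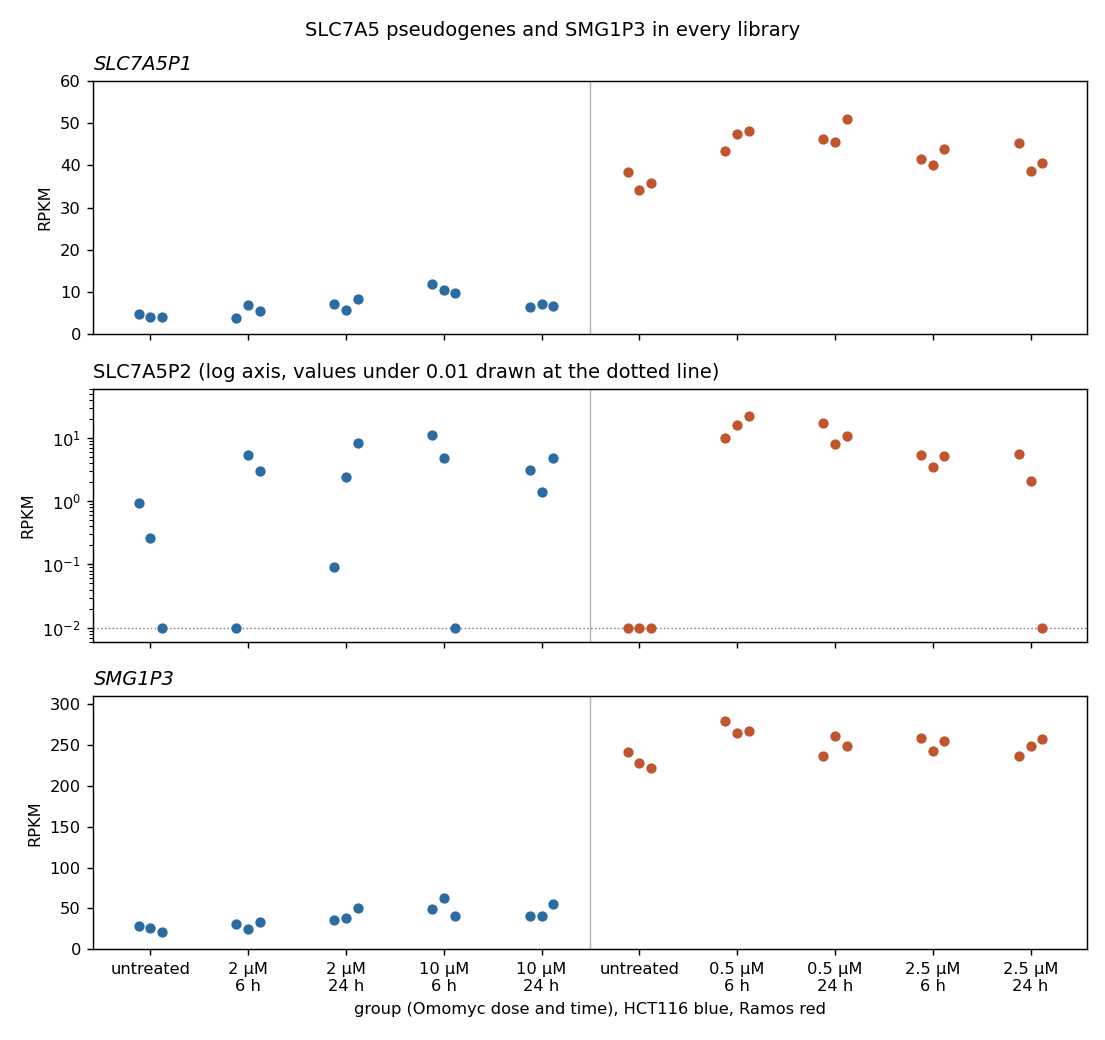
RPKM of SLC7A5P1, SLC7A5P2 (log axis, values under 0.01 drawn at the dotted line) and SMG1P3 in each of the 30 libraries by group (x axis, HCT116 blue, Ramos red). SLC7A5P1 and SMG1P3 are higher in each Ramos library than in any HCT116 library, while SLC7A5P2 ranges from under 0.0001 to 22.4 RPKM.

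The weight of the copies depends on the scale. Of the summed RPKM of SLC7A5, SLC7A5P1 and SLC7A5P2, the copies made up 3.26% ± 0.627 (SD, n = 3) in untreated HCT116 cells and 24.2% ± 1.08 in untreated Ramos cells. Over the 15 libraries of each line the share ranged from 2.32% to 11.1% and from 23.3% to 36.0%. RPKM is a value per length, and the copies are annotated with 537 and 536 exon bases where SLC7A5 has 4745. The submitters' annotation is not given, so weighting by GENCODE 29 exon length only approximates reads. So weighted, the copies made up 0.380% ± 0.0753 in untreated HCT116 cells and 3.48% ± 0.198 in untreated Ramos cells. On that approximation, adding all reads of both copies would raise SLC7A5 by 0.269% to 1.41% in HCT116 libraries and by 3.44% to 6.36% in Ramos libraries.

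Adding the reads of these copies could move the SLC7A5 differences only little. On the approximation above they add at most 1.41% in HCT116 and 6.36% in Ramos libraries. The values below describe the size of that step and are no check of the differences. How RSEM divided ambiguous reads was not tested. Reads of SMG1P3, which shares 181 words of 50 bases with SLC7A5, were not added. SMG1P3 stood at 230 RPKM in untreated Ramos cells, and its sharing of reads with SLC7A5 was not tested. With the reads of the copies added, the log2 differences in HCT116 cells were 0.12, -0.05, 0.22 and 0.11 at 2 μM for 6 and 24 h and 10 μM for 6 and 24 h. In Ramos cells they were 0.29, 0.09, 0.22 and 0.14 at 0.5 μM for 6 and 24 h and 2.5 μM for 6 and 24 h. Each of these 8 moved by less than the SD between replicates. The difference between the untreated lines moved from 0.29 to 0.24, which was more than the SD between replicates, and kept its sign. The reverse, how much of the SLC7A5P1 value came from reads of SLC7A5, was not tested, since the reads were not used here.

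The number of the 4 rows past limma's threshold is given beside its background over all genes tested, and nothing is read from it, since the rows were selected on these values. In HCT116 cells at 2 μM for 6 h it was 0 of 4 where 47.3% of all genes were called, and 0 of 4 had groups without overlap where 57.8% of all genes did. At 2 μM for 24 h it was 1 of 4 against 27.3%, and 1 of 4 without overlap against 44.9%. At 10 μM for 6 h it was 1 of 4 against 30% and 1 of 4 without overlap against 50.2%, the one row being SLC7A5P1 in both groups. At 10 μM for 24 h it was 3 of 4 against 35.2%, with SLC7A5 the one not called, and 4 of 4 without overlap against 49.3%. In Ramos cells at 0.5 μM it was 3 of 4 against 23.6% at 6 h and 1 of 4, SLC7A5P2, against 0.0146% at 24 h. Without overlap were 4 of 4 against 41.4% and 2 of 4 against 11.5%. At 2.5 μM it was 3 of 4 against 27.9% at 6 h and 0 of 4 against 4.61% at 24 h, and without overlap were 3 of 4 against 44.7% and 2 of 4 against 27.4%. Between the untreated lines 3 of the 3 rows above the filter were called against 84.6%, and 3 of 3 were without overlap against 85.6%. SLC7A5P2 is counted here although, in each comparison with untreated cells, it passed the filter of 0.5 RPKM only through the treated libraries. Its untreated mean lay below that filter in both lines.

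Genes that work with or beside the transporter were tested by limma in the same fits, 34 genes in 7 lists. In HCT116 cells 15 of 28 tested genes were called at 2 μM for 6 h (3 higher, 12 lower), where 47.3% of all genes tested were called, and 14 of 28 at 2 μM for 24 h (6 higher, 8 lower), where 27.3% were. At 10 μM 10 of 28 were called at 6 h (2 higher, 8 lower), beside 30% of all genes, and 15 of 28 at 24 h (8 higher, 7 lower), beside 35.2%. Without the library that stood apart, the count at 10 μM for 6 h was 19. In Ramos cells 7 of 27 were called at 0.5 μM for 6 h (2 higher, 5 lower), beside 23.6% of all genes, 11 of 27 at 2.5 μM for 6 h (3 higher, 8 lower), beside 27.9%, and 2 of 27 at 2.5 μM for 24 h (1 higher, 1 lower), beside 4.61%. At 0.5 μM for 24 h 0 of 27 were called by limma, beside 0.0146% of all genes, and 0 of 27 had an unadjusted p under 0.05. Of the 74 calls against untreated cells of the same line, 34 were lost in 1 or more of the alternative settings, and 15 of these were lost on leaving out a single library. The median difference of the listed genes was -0.23 at 2 μM for 6 h in HCT116 cells, where that of all genes was -0.12, and -0.20 at 10 μM for 6 h, where that of all genes was -0.11. In the other comparisons with untreated cells it lay between -0.11 and 0.04. The heat map of listed genes shows that most calls were in HCT116 cells and at 6 h in Ramos cells.

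**Figure D5:**
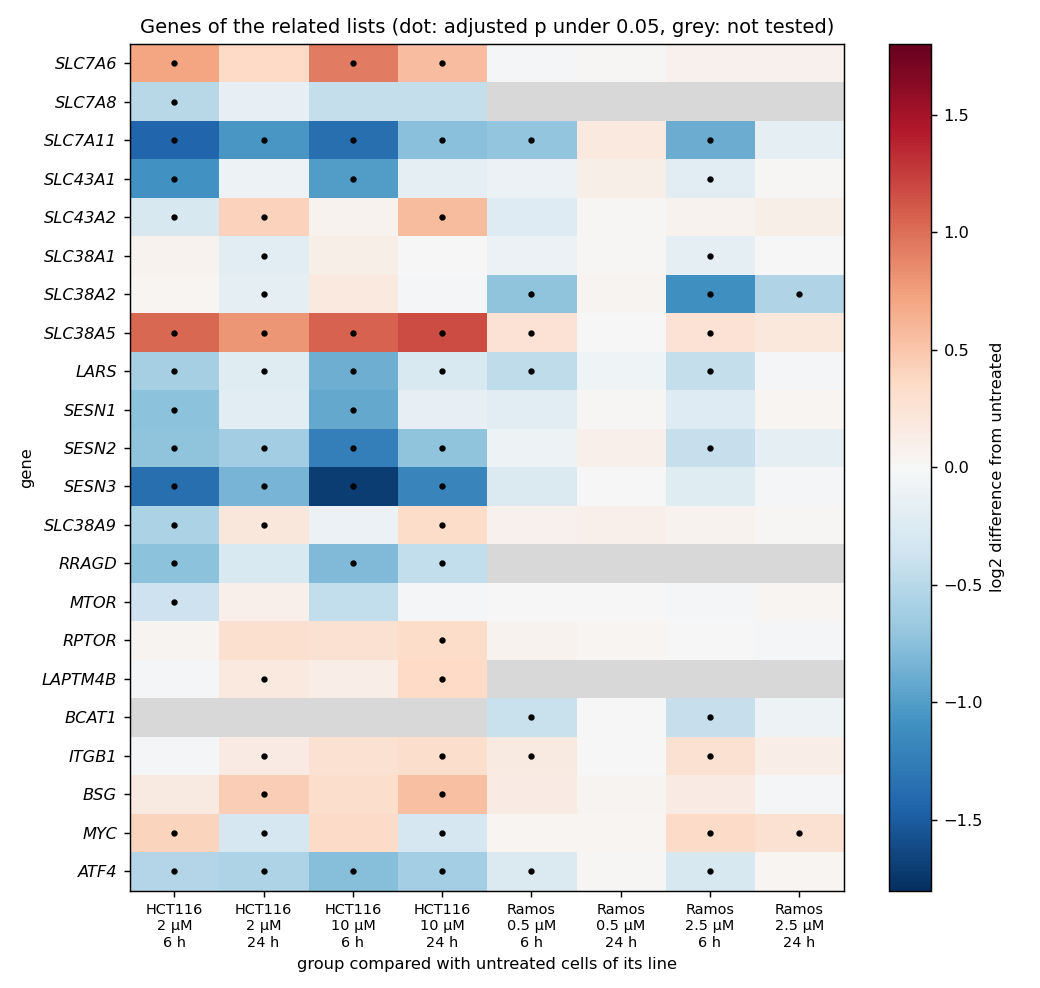
Log2 differences from untreated cells of the same line (color) for the listed genes called in at least 1 of 8 comparisons (rows) and the 8 treated groups (columns). Dots mark an adjusted p under 0.05 by limma and grey marks genes below the filter of a mean of 0.5 RPKM. SLC38A5 is red and SLC7A11 and SESN3 are blue in all 4 HCT116 columns.

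Other light chains that pair with SLC3A2 moved in different directions. SLC7A11, the cystine and glutamate exchanger xCT, fell in all 4 HCT116 groups and at 6 h in both Ramos groups. In HCT116 cells it went from 20.7 ± 1.43 RPKM (SD, n = 3) untreated to 7.43 ± 0.695 at 2 μM for 6 h, a log2 difference of -1.42 ± 0.09 (SE, adjusted p = 1.2e-05), and to 12.2 ± 1.16 at 10 μM for 24 h. In Ramos cells it went from 6.52 ± 0.153 to 3.29 ± 0.123 at 2.5 μM for 6 h, a log2 difference of -0.89 ± 0.09 (adjusted p = 0.00021). SLC7A6, the y+LAT2 light chain, rose in 3 HCT116 groups, from 11.4 ± 1.101 untreated to 22.6 ± 5.12 at 10 μM for 6 h, a log2 difference of 0.93 ± 0.18 (adjusted p = 0.0083). SLC7A8, the light chain LAT2, was low in HCT116 cells and fell at 2 μM for 6 h, from 1.94 ± 0.178 to 1.25 ± 0.332 RPKM (log2 difference -0.50 ± 0.17, adjusted p = 0.034). This SLC7A8 call was lost in 4 of 6 fits with 1 library left out (adjusted p up to 0.12 by limma). SLC7A10 and the 3 genes SLC3A1, SLC7A9 and SLC7A13 did not reach the filter in any comparison. SLC7A7 was tested against untreated cells only in Ramos and was not called.

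Among the other carriers of system L, which move large neutral amino acids without a heavy chain, SLC43A1 fell at 6 h in both HCT116 groups, from 2.98 ± 0.149 to 1.15 ± 0.223 RPKM at 2 μM (log2 difference -1.09 ± 0.14, adjusted p = 0.00034), and in Ramos cells at 2.5 μM for 6 h. SLC43A2 fell at 2 μM for 6 h and rose at 24 h at both HCT116 doses, to 8.88 ± 1.36 RPKM at 10 μM from 5.80 ± 0.362 (log2 difference 0.57 ± 0.11, adjusted p = 0.0033). Of the glutamine and small neutral amino acid carriers, SLC38A5 rose in all 4 HCT116 groups, to 36.4 ± 0.399 from 15.8 ± 0.253 RPKM at 10 μM for 24 h (log2 difference 1.18 ± 0.05, adjusted p = 1.4e-06), and at 6 h in both Ramos groups. SLC38A2 fell in Ramos cells at 2.5 μM for 6 h, from 6.89 ± 0.373 to 2.95 ± 0.155 RPKM (log2 difference -1.10 ± 0.09, adjusted p = 0.00011). It also fell in Ramos cells at 0.5 μM for 6 h and at 2.5 μM for 24 h, and in HCT116 cells at 2 μM for 24 h, there by 0.16. Its call at 2.5 μM for 24 h was lost without any 1 of the 3 treated libraries (adjusted p up to 0.078 by limma) and with no filter on low values (0.051), and that in HCT116 cells in 5 of 6 fits with 1 library left out (up to 0.13). The calls of SLC38A5 in Ramos cells were lost in 4 of 6 such fits at each dose (up to 0.10 and 0.12), and its call at 10 μM for 6 h in HCT116 cells in 1 (0.052). Those of SLC43A1 at 10 μM for 6 h in HCT116 cells and at 2.5 μM for 6 h in Ramos cells were lost in 4 and 2 of 6 (up to 0.076 and 0.074), and that of SLC43A2 at 2 μM for 6 h in 3 of 6 (up to 0.12). SLC38A1 fell by 0.19 on the log2 scale in HCT116 cells at 2 μM for 24 h and by 0.18 in Ramos cells at 2.5 μM for 6 h. SLC1A5 (ASCT2), which supplies glutamine for exchange through LAT1, was not called in any of the 8 comparisons.

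Of the genes of leucine use and sensing, 7 of 14 tested fell at 2 μM for 6 h in HCT116 cells, where 47.3% of all genes tested were called, and 5 of 14 fell at 10 μM for 6 h, where 30% were. By limma 0 of 14 were called as higher at 6 h (8 of 14 had an unadjusted p under 0.05 at each dose, whatever the direction), and over all genes 32.7% and 29.4% of the calls were higher. These shares of called genes lay near the background. At 24 h 3 of 14 fell and 2 rose at 2 μM, where 27.3% of all genes tested were called. At 10 μM for 24 h 4 of 14 fell and 3 rose, where 35.2% were called. SESN3, a sestrin that restrains mTORC1, went from 4.32 ± 0.840 RPKM untreated to 0.977 ± 0.331 at 10 μM for 6 h (log2 difference -1.71 ± 0.20 (SE), adjusted p = 0.0018). SESN2, the leucine-binding sestrin, went from 9.39 ± 0.657 to 3.76 ± 0.8496 RPKM (-1.23 ± 0.16, adjusted p = 0.0023), and SESN1 from 7.31 ± 0.362 to 3.62 ± 0.259 RPKM (-0.92 ± 0.11, adjusted p = 0.0018). LARS, the leucyl-tRNA synthetase, went from 91.7 ± 1.76 to 49.9 ± 8.55 RPKM in that group (-0.89 ± 0.14, adjusted p = 0.0041) and fell in all 4 HCT116 groups and at 6 h in both Ramos groups. In Ramos cells BCAT1, which transaminates leucine, fell at 6 h at both doses. RRAGD, a Rag GTPase that carries the amino acid signal to mTORC1, fell in 3 HCT116 groups, and MTOR in 1. The genes of this list that rose in a comparison were SLC38A9, RPTOR and LAPTM4B, all in HCT116 cells at 24 h, and SLC38A9 was called as lower at 2 μM for 6 h. With 1 library left out the calls of SLC38A9 and LAPTM4B at 2 μM for 24 h were each lost in 5 of 6 fits (adjusted p up to 0.14 and 0.094 by limma), and that of SESN2 at 2 μM for 6 h in 3 of 6 (up to 0.065). BCAT2, CASTOR1, RRAGA, RRAGB and RRAGC were not called in any of the 8 comparisons.

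ITGB1, the integrin beta 1 chain that binds CD98, and BSG, the CD147 protein found with it, were called as higher only. BSG rose in HCT116 cells at 24 h, from 243 ± 14.7 to 353 ± 5.41 RPKM at 10 μM (log2 difference 0.54 ± 0.06 (SE), adjusted p = 0.00017). ITGB1 rose at 24 h at both HCT116 doses and at 6 h at both Ramos doses, by 0.15 to 0.32 on the log2 scale, except that with an equal sum of RPKM per library its difference at 2 μM for 24 h was -0.0029. With 1 library left out the ITGB1 call was lost in 4 of 6 fits at 2 μM for 24 h (adjusted p up to 0.12 by limma) and in 6 of 6 at 0.5 μM for 6 h (up to 0.15).

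Of the transcription factors known to act on SLC7A5, ATF4 mRNA fell in all 4 HCT116 groups and at 6 h in both Ramos groups. It went from 309 ± 22.6 to 182 ± 9.57 RPKM at 10 μM for 6 h in HCT116 cells (log2 difference -0.76 ± 0.11 (SE), adjusted p = 0.0029) and from 256 ± 7.37 to 210 ± 5.75 RPKM at 2.5 μM for 6 h in Ramos cells (-0.28 ± 0.04, adjusted p = 0.0014). MYC mRNA rose at 2 μM for 6 h in HCT116 cells, from 118 ± 4.92 to 156 ± 2.87 RPKM (0.40 ± 0.06, adjusted p = 0.00065), and fell at 24 h at both doses. In Ramos cells it rose at 2.5 μM, from 140 ± 11.5 to 178 ± 4.32 RPKM at 6 h (0.35 ± 0.06, adjusted p = 0.0029) and to 169 ± 7.53 RPKM at 24 h (0.27 ± 0.06, adjusted p = 0.042). The MYC call at 24 h in Ramos cells was lost in 5 of 6 fits with 1 library left out, among them each of the 3 treated ones (adjusted p up to 0.17 by limma), and with no filter on low values (0.16). MAX was not called in any of the 8 comparisons. The ATF4 calls in Ramos cells and the MYC calls in HCT116 cells were each lost in 1 of 14 alternatives, and never on leaving out a library. In the Ramos groups at 6 h the SLC7A5 libraries lay above the untreated ones and those of ATF4 below, and a link between them was not tested.

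The promoter of SLC7A5 holds CACGTG, the E box form that MYC and MAX bind. Its 250 bases before the RefSeq transcription start, at chr16:87869508-87869757 on the minus strand of GRCh38.p14, are shown with the match in capitals, because MYC is the protein that Omomyc was made against.
SLC7A5 promoter: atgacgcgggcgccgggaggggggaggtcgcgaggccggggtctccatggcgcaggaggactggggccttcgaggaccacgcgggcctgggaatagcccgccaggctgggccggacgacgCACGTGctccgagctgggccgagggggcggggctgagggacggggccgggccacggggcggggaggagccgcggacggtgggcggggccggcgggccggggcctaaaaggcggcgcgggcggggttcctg
The motif CACGTG, which reads the same on both strands, began 130 bases before the start. It occurs in 6.34% of 35116 RefSeq promoter windows of this length. TGATGNAA, a form of the site that ATF4 binds, searched on both strands, was not in this window and occurs in 3.14% of all windows. Neither motif was in any of the 3 windows listed for SLC3A2. A match is a description of the letters and not a measured binding site.

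Between the untreated lines 26 of 30 listed genes tested were called, with 13 higher in HCT116 and 13 higher in Ramos cells. Of all genes tested 84.6% were called, so the count of listed genes lay near the background. SLC7A8 and SLC7A11 were higher in HCT116 cells and SLC7A6 and SLC7A7 higher in Ramos cells among the light chains. SLC38A2 was at 193 ± 5.69 RPKM (SD, n = 3) in HCT116 and 6.89 ± 0.373 in Ramos cells, a log2 difference of 4.71 ± 0.05 (SE, limma, adjusted p = 8.2e-10). SLC43A1 was at 2.98 ± 0.149 and 34.2 ± 1.18 RPKM, a log2 difference of -3.32 ± 0.06 (adjusted p = 5.3e-09). SLC1A5 differed by 0.14 ± 0.04 (adjusted p = 0.011). With 1 line of each kind, these p-values compare 2 cell lines and not 2 kinds of tumor.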

How the data were processed

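RNA was sequenced from 30 libraries made with a stranded total RNA kit after ribosomal RNA removal. The authors deposited 1 table of RPKM, reads scaled to gene length and library size, for 57992 genes. The submitters' processing notes name RSEM. Its version, the aligner, the genome build, the annotation, filters and read length are not given in the sources used here, and depth is unknown, so no counting intervals are given. Precision rests on 3 replicates per group. Within groups, log2 values correlated with r from 0.973 to 0.996, and 0 pairs were identical.

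The members and lists were chosen with earlier results of these data known. Symbols and positions came from GENCODE 29 on GRCh38, which matched 57388 of 57992 identifiers. For each comparison, linear models were fitted to log2(RPKM + 0.5) by limma 3.58.1 (lmFit, then eBayes with trend, under R 4.3.3) for genes with a mean of at least 0.5 RPKM over the libraries compared, with Benjamini-Hochberg adjustment over all genes tested and a threshold of 0.05. Of each list, genes past the threshold in at least 1 of 8 comparisons with untreated cells were named, with values for up to 4 with the largest differences. The script was checked on simulated data. Fold changes on this scale understate changes of low genes. Transcripts were aligned with Biopython 1.88 (local, match 2, mismatch -3, gap -5 and -2), and promoters came from RefSeq (GRCh38.p14).

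Fits were repeated after changing the pseudocount to 0.1 or 1, dropping the filter or raising it to 2 RPKM, scaling by median ratios or to equal RPKM sums, pooling the 5 groups of each line, blocking on replicate number, and leaving out each library. Adding the reads of both copies to SLC7A5 was chosen after seeing the data.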

Additional observations from a re-analysis of the deposited data

Results flagged for a closer look

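No group had more than 3 libraries, and no outlier test was run within groups of 3. In 6 listed genes every treated library of one line lay above the mean of its untreated libraries and every treated library of the other line below it, at the same time point. Besides SLC7A5, SLC3A2 and SLC7A5P1, only listed genes called in at least 1 of the 2 comparisons set side by side were screened. The Ramos groups at 0.5 μM were not used. The share of all genes that meet this rule was not computed, so nothing is read from the count. The doses differ between the lines, and the difference between the lines was not tested. Log2 differences are on the log2(RPKM + 0.5) scale. At 6 h, with 2 μM in HCT116 and 2.5 μM in Ramos cells, SLC38A9 differed from untreated by -0.58 and 0.066 and SLC43A2 by -0.28 and 0.059. At 6 h, with 10 μM in HCT116 and 2.5 μM in Ramos cells, SLC38A2 differed by 0.18 and -1.10. At 24 h with 2.5 μM in Ramos cells, ATF4 differed by -0.55 at 2 μM and -0.61 at 10 μM in HCT116 cells and by 0.032 in Ramos cells. BSG differed by 0.44 and 0.54 in HCT116 cells and by -0.031 in Ramos cells. MYC mRNA differed by -0.30 and -0.30 in HCT116 cells and by 0.27 in Ramos cells.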

How the results depend on the processing

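With an equal sum of RPKM per library, the SLC7A5 difference was reversed in HCT116 cells at 2 μM for 6 h (-0.22), 10 μM for 6 h (-0.28) and 10 μM for 24 h (-0.078), that of SLC3A2 at 10 μM for 6 h in HCT116 (-0.21) and at 2.5 μM for 24 h in Ramos cells (0.20), and that of SLC7A5P1 at 2 μM for 6 h (-0.023). Under it SLC3A2 was at -0.35 at 2 μM for 6 h, SLC7A5 and SLC3A2 at -0.21 and -0.18 at 2 μM for 24 h, SLC7A5P1 at 0.77 at 10 μM for 6 h, and SLC3A2 and SLC7A5P1 at 0.043 and 0.42 at 10 μM for 24 h. In Ramos cells SLC7A5, SLC3A2 and SLC7A5P1 were at 0.36, 0.20 and 0.45 at 0.5 μM for 6 h and at 0.36, 0.15 and 0.34 at 2.5 μM for 6 h. SLC7A5 and SLC3A2 were at 0.13 and 0.080 at 0.5 μM for 24 h, and SLC7A5 and SLC7A5P1 at 0.34 and 0.40 at 2.5 μM for 24 h. Between the untreated lines the 3 rows were at 0.86, 0.87 and -2.40, and SLC38A1 (0.23), LARS (0.15), SESN1 (0.22), MTOR (0.34), MYC (0.33) and MAX (0.069) changed sign, as did ITGB1 at 2 μM for 24 h (-0.0029). The number of genes called was 7235 at 10 μM for 6 h in HCT116 and 4 and 5362 at 0.5 and 2.5 μM for 24 h in Ramos cells. Of listed genes 24 were called at 2 μM for 6 h, 17 at 10 μM for 6 h and 13 at 2.5 μM for 24 h in Ramos cells. The share of calls that were higher, as reported, with median-ratio scaling and with an equal sum, was 32.7%, 51.9% and 6.76% at 2 μM for 6 h, 60.6%, 49.1% and 23.0% at 2 μM for 24 h, 29.4%, 49.5% and 4.28% at 10 μM for 6 h and 55.3%, 50.7% and 20.4% at 10 μM for 24 h in HCT116 cells. It was 58.7%, 51.1% and 79.8% at 0.5 μM for 6 h, 61.8%, 51.5% and 85.2% at 2.5 μM for 6 h and 71.6%, 43.4% and 97.4% at 2.5 μM for 24 h in Ramos cells, and 53.9%, 54.7% and 73.6% between the lines. The cause was not tested.

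Median-ratio scaling gave SLC7A5P1 1.37 at 10 μM for 6 h, and at 2.5 μM for 24 h in Ramos cells SLC7A5 0.075, SLC3A2 -0.066, 346 genes and 1 listed gene. Without a filter 2282 genes were called at 2 μM for 24 h, 2008 at 0.5 μM for 6 h, 0 at 0.5 μM for 24 h and 84 (0 listed) at 2.5 μM for 24 h. A mean of at least 2 RPKM left 1 gene at 0.5 μM for 24 h. With all 5 groups in one fit 1113 genes (4 listed) were called at 2 μM for 24 h, 2535 at 10 μM for 24 h, 1 at 0.5 μM for 24 h and 1242 at 2.5 μM for 24 h, and 11 listed genes at 0.5 μM for 6 h. A pseudocount of 0.1 or 1 put SLC7A5P1 between the lines at -3.06 or -2.82. Adding the reads of both copies, chosen after seeing the data, put SLC7A5 between the lines at 0.24. Weighting by exon length put the ratio of SLC7A5 to SLC3A2 at 0.81 in both untreated lines and the share of the copies at 0.380% and 3.48%. With Spearman's rho, 0 of 5 and 1 of 5 genes named beside SLC7A5 and 0 of 3 and 1 of 3 beside SLC3A2 stayed named in HCT116 and Ramos cells.

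Replicate numbers are shared between groups in the labels, but the deviations of same-numbered libraries correlated above 0.1 in 2 of 27 pairs (from -0.22 to 0.15), so the numbers were not taken as pairs. With a replicate block 197 genes and 1 listed gene were called at 2.5 μM for 24 h in Ramos cells, against 627 and 2.

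Leaving out 1 library gave 1813 to 7565 genes and 8 to 19 listed genes at 10 μM for 6 h, with SLC7A5 from -0.03 to 0.55 and SLC3A2 from -0.01 to 0.63. It gave 2167 to 3665 genes at 2 μM for 24 h, 1853 to 3012 at 0.5 μM for 6 h, 1 to 4 at 0.5 μM for 24 h, 2446 to 3703 at 2.5 μM for 6 h and 60 to 929 (0 to 2 listed) at 2.5 μM for 24 h. Of 100 calls of listed genes over all 9 comparisons, 60 stayed under every alternative run and 40 were lost in 1 or more. Read depth is unknown, so its limit on low values could not be computed.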
